A study of Danio rerio with 18 samples.

Results

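Zebrafish embryos injected with a mismatch morpholino were compared with uninjected embryos of the wild-type strain WIK at 24 hours post-fertilization (hpf). The comparison took the 3 libraries labelled mm-MO and the 3 labelled WIK at that age, which are 6 of the 18 libraries of the study. The mm-MO embryos were themselves WIK embryos, labelled wild type, and were injected between the 1- and 4-cell stages. The uninjected embryos had no treatment. Embryos of both groups were dechorionated at 24 hpf, and each library was made from the polyadenylated RNA of a pool of whole embryos, 20 to 25 of them by the description of the design. Another group of 3 libraries, WIK embryos injected in the same window with a morpholino against her3, is used below to set values beside those of the mismatch injection, and 3 libraries of uninjected her3 -/- embryos of the same age are shown in the plots. Those and 3 libraries of uninjected her3 -/- embryos at 72 hpf give the change with age. The study compared these groups to follow the loss of her3, and the mismatch morpholino served it as a second control.

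Morpholinos are synthetic antisense oligomers that block translation or splicing of a chosen transcript, and a mismatch morpholino carries base changes meant to stop it from pairing with that target. In zebrafish, morpholinos are known to cause cell death in some embryos independently of their target, along with the induction of genes that halt the cell cycle or promote apoptosis. A mismatch control is meant to carry the effects of the injection without those of the target's loss. The labels do not name the clutches, so the injection and the parents of the embryos cannot be told apart in this comparison, and neither can any difference in handling. The sequence of the oligomer is not given in the sources used here.

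Values are normalized read counts (CPM), and differences are on the log2(CPM + 0.5) scale, which understates the change of weakly expressed genes. Libraries of both groups held 14214136 to 23135995 reads in genes, and 3 reads, the count taken as the limit of detection, corresponded to 0.122 to 0.255 CPM across them. Replicates did not agree equally. WIK replicates 2 and 3 differed from each other by a chi-square per degree of freedom of 4.26, while WIK replicate 1 differed from them by 27.67 and 31.86. WIK replicate 1 also held the fewest reads and had the highest sum of CPM among the 18 libraries. mm-MO replicates 1 and 2 differed by 4.59, while replicate 3 differed from them by 28.31 and 20.08. In the other groups the same measure was 3.64 to 4.6 in her3 -/- at 24 hpf and 5.23 to 29.02 in her3-MO. It was 3.76 to 10.41 in her3 -/- at 72 hpf and 4.02 to 4.48 in WIK at 72 hpf, a group used only in the shared fit. The summed level of the ribosomal protein genes moved with these libraries: it was 121472, 80203 and 75128 CPM in WIK and 60061, 62884 and 81289 CPM in mm-MO. Many of the counts below are therefore also given without WIK replicate 1 and mm-MO replicate 3. Markers of the whole embryo were present in both groups, among them the hatching gland protease he1.1 (1648 to 3480 CPM), the muscle actin actc1b (2675 to 4126 CPM), the embryonic globin hbae3 (671 to 1306 CPM) and the neural factor SOX2 (148 to 178 CPM). The digestive protease prss1 stayed at or below 0.767 CPM in all 6 libraries.

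her3, a repressor of the Hairy/Enhancer of split family that is listed under the symbol HES3, was at 11, 9.24 and 9.82 CPM in the WIK libraries and at 7.87, 7.66 and 8.09 CPM in the mm-MO libraries. All mm-MO values lay below all WIK values. Even so, the difference of -0.33 ± 0.12 (log2, SE from the fit of all 18 libraries, n = 3 per group) did not pass the test (adjusted p = 0.09). In her3-MO libraries her3 was at 41.8, 33.7 and 32.3 CPM, above the mm-MO libraries by 2.11 ± 0.12 (log2, SE, adjusted p = 5.9e-08).

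Of 20738 genes tested, 2171 (10.5%) passed an adjusted p of 0.05 between mm-MO and WIK. mm-MO was higher for 1034 genes (4.99%) and lower for 1137 (5.48%). Most of these differences were small, with a median size of 0.58 on the log2 scale. A change of at least 2-fold was reached by 340 genes (1.64%), of which 164 were higher (0.791%) and 176 lower (0.849%), and 52 genes passed 4-fold. All 3 values of one group lay above all 3 of the other for 4809 genes (23.2%). Rescaling the libraries to plain totals moved the median of all genes from 0.026 to 0.127 and the share of called genes that were higher from 47.6% to 71.2%, so the balance of directions depends on the scaling. The count of called genes rests in part on the spread shared with the other 4 groups: a fit of these 6 libraries alone called 154 genes, 153 of them among the 2171, with 3054 at an unadjusted p under 0.05 against 5524 in the fit of all libraries. Some of those 4 groups had closer replicates, so the shared spread can be too small for mm-MO and WIK. The same then holds for the standard errors and the adjusted p-values. Leaving out mm-MO replicate 2 gave 1048 genes, leaving out mm-MO replicate 1 gave 1305, and leaving out WIK replicate 1 together with mm-MO replicate 3 gave 2226. The replicates are pools of embryos, and nothing in the labels says whether they came from separate clutches.

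**Figure D1:**
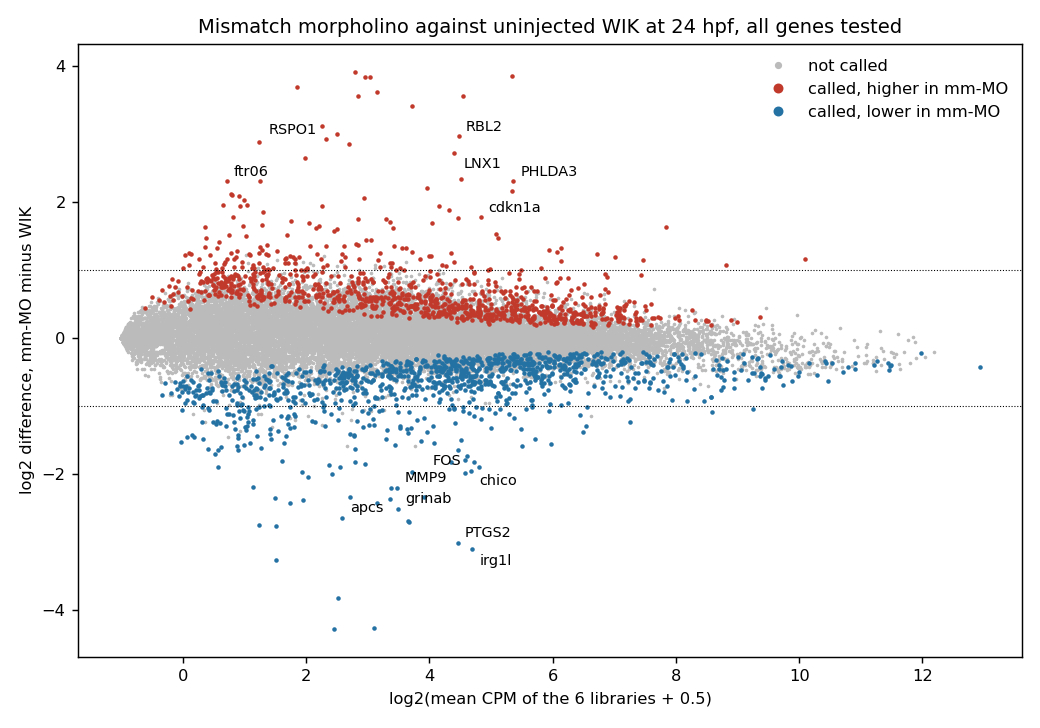
Each point is one of the 20738 genes tested. The x axis is the log2 of the mean CPM of the 6 libraries plus 0.5 and the y axis the log2 difference of mm-MO minus WIK, with dotted lines at 2-fold. Genes that passed the adjusted p of 0.05 are red (1034 higher) or blue (1137 lower). RBL2, RSPO1 and LNX1 lead the labelled genes above, irg1l and PTGS2 those below, and the unlabelled points beyond them are genes with clone names or only an identifier.

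Several genes of apoptosis and of cell cycle arrest were higher in mm-MO, casp8 and PHLDA3 among the 15 largest increases. cdkn1a, PHLDA3, mdm2 and CCNG1, given below, were fixed by name and show no share of arrest genes. cdkn1cb, another inhibitor of cyclin-dependent kinases, was lower in mm-MO. Of 38 tested members of the apoptosis list, 5 were higher and 5 lower in mm-MO (26.3% called, beside 10.5% of all genes), so the list as a whole did not move one way. Its largest increase was that of casp8, the initiator caspase of the death receptor pathway, which was at 17.6, 12.4 and 13.3 CPM in WIK and at 59.2, 63.3 and 75.4 CPM in mm-MO and rose by 2.16 ± 0.15 (log2, SE, n = 3 per group, adjusted p = 2.6e-07). bbc3, which encodes the pro-apoptotic protein Puma, was at 6.2, 3.75 and 4.35 CPM against 14.6, 17 and 14.8 CPM (1.62 ± 0.16, adjusted p = 9.9e-06). BAX, the pore-forming effector, was at 95.4, 84.3 and 81.8 CPM against 135, 146 and 149 CPM (0.72 ± 0.07, adjusted p = 9.9e-06). The groups did not overlap for any of these. APAF1 of the apoptosome rose by 0.49 and BIRC2, an inhibitor of apoptosis, by 0.41. Among those that fell, xiap, an inhibitor of caspases, was at 33, 29.7 and 26.3 CPM in WIK and at 15.3, 16.7 and 20 CPM in mm-MO (-0.76 ± 0.15, adjusted p = 0.0046). The BH3-only gene bida fell by 0.77 (adjusted p = 0.0098), a call lost without mm-MO replicate 1, and the mitophagy receptor BNIP3L (ENSDARG00000028067) by 0.75 (adjusted p = 7.4e-04). The count of 5 higher genes was 8 after rescaling to plain totals. A fit of the 6 libraries alone called 3 apoptosis genes higher and 0 lower. The count of 5 lower genes was 2 without mm-MO replicate 1, 3 without WIK replicate 1 or mm-MO replicate 2, 8 without mm-MO replicate 3 and 6 without both libraries that stood apart.

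cdkn1a, the inhibitor of cyclin-dependent kinases known as p21, was at 10.1, 12.8 and 14.6 CPM in WIK and at 41.8, 46.3 and 43.7 CPM in mm-MO, a difference of 1.78 ± 0.13 (adjusted p = 4.9e-07). PHLDA3, which restrains Akt signalling, was at 16.4, 11.1 and 12.8 CPM and at 62.3, 65.5 and 76 CPM (2.31 ± 0.14, adjusted p = 5.2e-08). The ubiquitin ligase mdm2 was at 41.6, 30 and 33.8 CPM against 85.6, 90.9 and 82.5 CPM (1.30 ± 0.11, adjusted p = 2.4e-06). No value of these genes overlapped between the groups. The cyclin CCNG1 was the most abundant of them, at 938, 573 and 534 CPM in WIK and at 1307, 1348 and 1845 CPM in mm-MO (1.17 ± 0.20, adjusted p = 0.0016). In WIK it was highest in replicate 1 and in mm-MO in replicate 3, the libraries that stood apart. The call of CCNG1 was lost in a limma fit of the 6 libraries alone (adjusted p = 0.12). isg15, an interferon-induced ubiquitin-like protein of the interferon list, was at 0.264 to 0.767 CPM in WIK and at 2.49 to 3.83 CPM in mm-MO (1.86 ± 0.27, adjusted p = 4.0e-04).

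The other injected group was set beside these values, and both contrasts with WIK share the WIK libraries. In her3-MO, cdkn1a was at 33.1, 43.1 and 42.1 CPM, casp8 at 39.6, 48.7 and 48.2 CPM and PHLDA3 at 39.8, 49.4 and 52.7 CPM, all above every WIK library. her3-MO lay below mm-MO for mdm2 (-0.55 ± 0.11, adjusted p = 0.013) and BAX (-0.29, adjusted p = 0.037). Its difference from mm-MO was -0.16 for cdkn1a (adjusted p = 0.64), -0.52 for PHLDA3 (adjusted p = 0.055) and -0.53 for casp8 (adjusted p = 0.077). BAX was chosen by its mm-MO values, which this contrast also uses, so its direction there is no independent evidence. Uninjected her3 -/- embryos had 18, 17.7 and 15.1 CPM of cdkn1a and 17.8, 16.4 and 14 CPM of PHLDA3. These values were below every mm-MO library, and those of cdkn1a were above every WIK library.

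**Figure D2:**
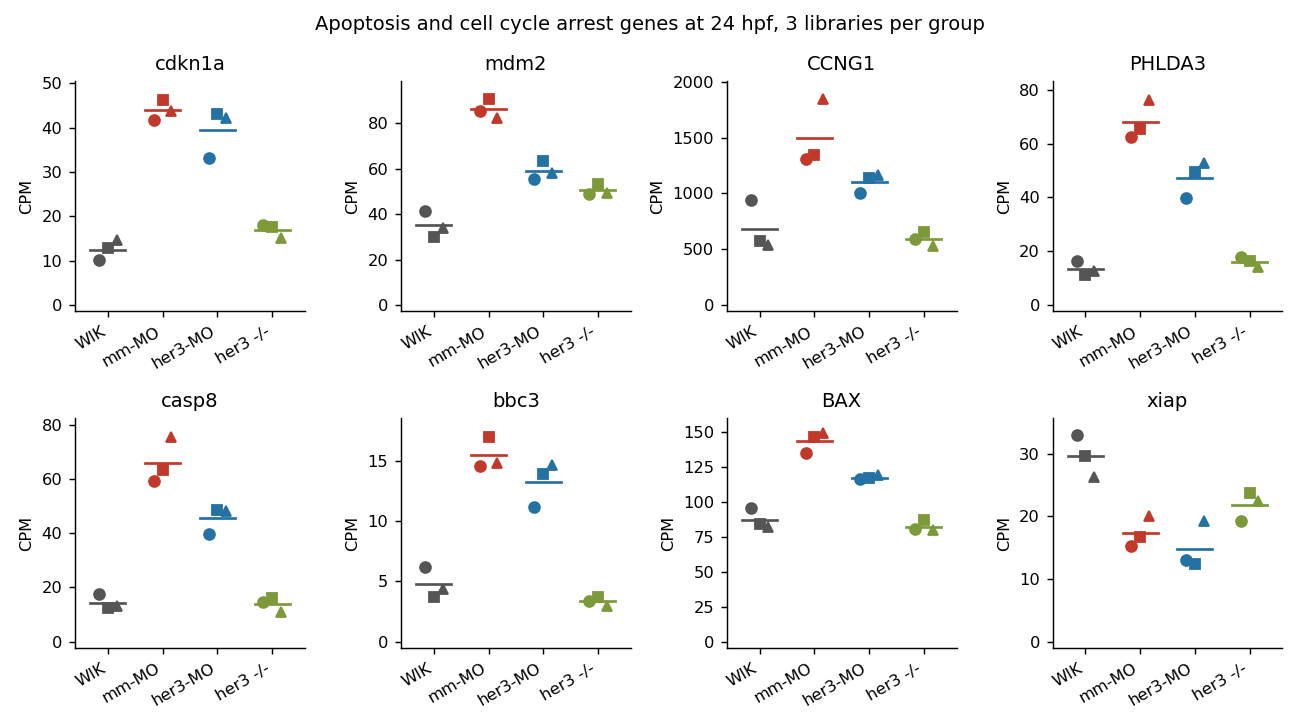
CPM of 8 genes from the text on apoptosis and cell cycle arrest, among them the ubiquitin ligase mdm2, in the 3 libraries of each 24 hpf group (circle replicate 1, square 2, triangle 3, with a line at the mean). In 7 panels the mm-MO libraries lie above the WIK libraries, with cdkn1a at 41.8 to 46.3 CPM in mm-MO against 10.1 to 14.6 CPM in WIK, and xiap is the reverse. The panels are a selection and give no share: of 38 tested apoptosis genes, 5 were higher and 5 lower.

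The largest single increase among genes with a proper name was that of RBL2, a pocket protein related to the retinoblastoma protein. It was at 4.5, 4.17 and 4.81 CPM in WIK and at 42.5, 43.1 and 31.6 CPM in mm-MO, a rise of 2.97 ± 0.16 (adjusted p = 2.1e-08) and a ratio of mean CPM of 8.69. RSPO1, a secreted enhancer of Wnt signalling, rose from 0.849, 0.37 and 0.819 CPM to 7.87, 8.54 and 8.56 CPM (2.93 ± 0.18, adjusted p = 4.6e-08). The ubiquitin ligase LNX1 rose from 3.23, 6.71 and 5.53 CPM to 30.1, 46.9 and 31.4 CPM (2.72 ± 0.20, adjusted p = 3.3e-07). In all of these, the lowest mm-MO library was several times the highest WIK library. The acid-sensing channel ASIC1 followed at 2.65 ± 0.28, bmb, which acts in the fusion of nuclear envelopes of early zebrafish embryos, at 2.34 ± 0.21, the axonemal dynein DNAH7 at 2.21 ± 0.24, the phospholipase PLA2G6 at 2.07 ± 0.22 and the exonuclease EXO5 at 1.94 ± 0.29. In her3-MO, RBL2 was at 26.9, 32.5 and 28.2 CPM, LNX1 at 31.6, 29.7 and 29 CPM and bmb at 23.9, 26.1 and 26.7 CPM. Among the 15 largest increases, the finTRIM gene ftr06, cpn1 (ENSDARG00000096720) and vwa10.1 were lower in her3-MO than in mm-MO. That contrast uses the same mm-MO libraries by which these genes were chosen, so its direction is no independent evidence. Over all genes it called 3.35%, with 1.45% higher and 1.90% lower in her3-MO.

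The lowest genes in mm-MO embryos included genes of inflammation and of the immediate-early response, which are transcribed within minutes of a stimulus such as wounding or growth factor signalling. Of 60 immediate-early genes tested, 26 were lower and 0 higher (43.3% called, beside 10.5% of all genes), with a median difference of -0.31. By limma 0 members were higher even at an unadjusted p under 0.05, and 0 in a limma voom fit of the recovered reads. The list's summed level was 2589, 2061 and 2577 CPM in WIK and 1856, 1870 and 1910 CPM in mm-MO. It was 1994, 1937 and 1946 CPM in her3-MO and 2157, 2156 and 2127 CPM in uninjected her3 -/- embryos. WIK replicates 1 and 3 thus lay above every other library at this age, and WIK replicate 2 below every her3 -/- library. FOS was at 58, 12.9 and 45.6 CPM in WIK and at 6.73, 7.96 and 9.07 CPM in mm-MO (-1.98 ± 0.37, adjusted p = 0.0026). WIK replicate 2 lay near the mm-MO libraries and the other WIK libraries far above. ier2b, by contrast, was high in all WIK libraries, at 54.8, 30.2 and 46.2 CPM against 11.5, 10.2 and 11.3 CPM (-1.90 ± 0.16, adjusted p = 1.6e-06). FOSL1 was at 26.5, 6.18 and 31.3 CPM in WIK and at 3.67, 4.42 and 4.17 CPM in mm-MO (-1.97 ± 0.42, adjusted p = 0.0073), a call that was lost without WIK replicate 1 and mm-MO replicate 3 (adjusted p = 0.072). ATF3 was lower by 1.82, JUNB by 1.82 and 1.48 at its 2 gene copies, FOSB by 1.60, egr1 by 1.30 and ier2a by 1.04.

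Of 49 inflammation and complement genes tested, 13 were lower and 1 higher (28.6% called, beside 10.5% of all genes). The summed level of the list overlapped between the groups, at 1942, 1690 and 1960 CPM in WIK and at 1686, 1877 and 2037 CPM in mm-MO. PTGS2 (ENSDARG00000010276), the inducible cyclooxygenase, was at 44.3, 13.9 and 59.7 CPM in WIK and at 3.71, 3.5 and 3.97 CPM in mm-MO (-3.01 ± 0.34, adjusted p = 3.3e-05). irg1l, related to the itaconate synthase of activated macrophages, was at 44, 3.54 and 97.1 CPM against 2.49, 2.54 and 2.58 CPM (-3.10 ± 0.71, adjusted p = 0.011), and its call was lost without WIK replicate 1 (adjusted p = 0.06) and with limma voom on recovered reads (adjusted p = 0.092). MMP9, a secreted gelatinase, was at 20.5, 3.38 and 32.4 CPM against 1.92, 2.67 and 3.14 CPM (-2.20 ± 0.50, adjusted p = 0.011), and its call was lost without WIK replicate 1 (adjusted p = 0.053). The pentraxin apcs, a plasma protein of innate immunity, was even across WIK libraries, at 11.2, 9.45 and 8.65 CPM, and at 0.448, 1.37 and 1.96 CPM in mm-MO (-2.64 ± 0.36, adjusted p = 1.8e-04). The cytokine genes il1b and tnfb were lower by 1.07 and 1.55, cxcl18b by 1.34, the cytokine signalling inhibitor SOCS3 (ENSDARG00000025428) by 1.63, and the complement inhibitor cfh was higher by 0.94. The count of 13 lower genes was 6 without WIK replicate 1, 7 without WIK replicate 3 or either of mm-MO replicates 1 and 2, 16 without WIK replicate 2 and 6 without both libraries that stood apart. The count of 26 immediate-early genes was 23 to 32 when one library was left out and 22 without those 2. These fits still share the spread of the other groups. A limma fit of the 6 libraries alone called 2 immediate-early genes lower, and 1 inflammation gene lower and 1 higher. FOS (adjusted p = 0.18), FOSL1 (0.21), MMP9 (0.27), irg1l (0.28) and PTGS2 (0.066) were not called in it, while ier2b and apcs were.

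FOS and PTGS2 were also set beside the other groups of this age. In her3-MO, FOS was at 8.86, 11.6 and 14.1 CPM and PTGS2 at 5.04, 6.28 and 6.84 CPM. In uninjected her3 -/- embryos, FOS was at 16.8, 20.5 and 16.2 CPM and PTGS2 at 5.4, 4.5 and 3.69 CPM. PTGS2 thus lay below every WIK library in both groups, while FOS in her3 -/- lay above every mm-MO library and within the range of WIK. The levels of both genes in WIK replicates 1 and 3 were above those of every other library at this age. ier2b differed: its values in her3-MO (22.3, 21.6 and 24.1 CPM) lay between those of mm-MO and WIK. Those in her3 -/- (29.8, 31 and 26.8 CPM) lay above mm-MO, and the highest exceeded WIK replicate 2. For ier2b, her3-MO was above mm-MO by 1.01 (adjusted p = 0.0016). The gene was chosen by its mm-MO values, which that contrast also uses, so its direction is no independent evidence.

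**Figure D3:**
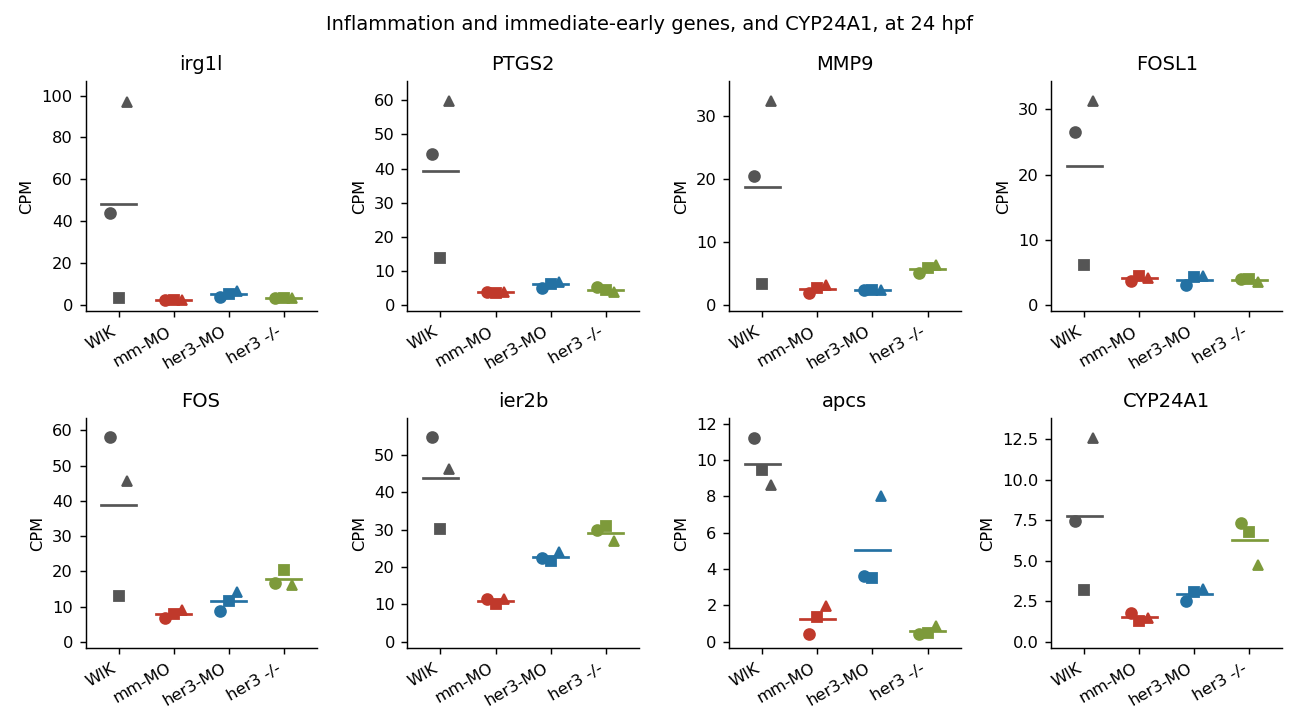
CPM of inflammation genes, immediate-early genes and CYP24A1, which degrades vitamin D, in the 3 libraries of each 24 hpf group (circle replicate 1, square 2, triangle 3; the line is the mean). WIK replicates 1 and 3 are high and WIK replicate 2 low for irg1l, PTGS2, MMP9, FOSL1 and FOS. For irg1l the mm-MO libraries lie between 2.49 and 2.58 CPM.

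Several genes were low in mm-MO and not in her3-MO, although both groups were injected. They were chosen partly by their mm-MO values, which both contrasts use. chico was at 42.9, 40.4 and 36.5 CPM in WIK, at 9.79, 10.7 and 9.28 CPM in mm-MO and at 45.1, 40.8 and 40 CPM in her3-MO. Its difference was -1.95 ± 0.13 from WIK (adjusted p = 1.1e-07) and her3-MO was above mm-MO by 2.02 (adjusted p = 2.0e-07). In her3 -/- embryos it was at 5.75, 6.32 and 5.18 CPM, below mm-MO. grinab followed the same pattern, with 22.4, 19.4 and 13.9 CPM in WIK, 1.88, 2.54 and 4.43 CPM in mm-MO, 21.2, 15.3 and 16.6 CPM in her3-MO and 2.7, 2.41 and 2.99 CPM in her3 -/-. PAQR3 (ENSDARG00000017703) was at 20, 13.3 and 10.1 CPM in WIK and at 1.55, 2.67 and 2.47 CPM in mm-MO (-2.43 ± 0.20, adjusted p = 1.0e-06), but at 23, 26.8 and 24.7 CPM in her3 -/-. dbndd1, with -2.42 ± 0.35, and plaat1l, with -2.34 ± 0.24, were lower in every mm-MO library than in any library of the other 3 groups of this age. The call of dbndd1 was lost in a limma fit of the mm-MO and WIK libraries alone (adjusted p = 0.11).

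Immune gene families that differ between strains and individuals contributed some of these. The class II MHC gene mhc2dgb was at 19.4, 28.3 and 26.6 CPM in WIK and at 8.36, 7.12 and 8.61 CPM in mm-MO (-1.55 ± 0.23, adjusted p = 4.0e-04). The immune-type receptor gene nitr4a was at 0.934, 0.739 and 1.18 CPM in WIK and had 0 reads in all 3 mm-MO libraries, at least 7.09-fold lower against a limit of 3 reads per library, while her3-MO had 0.721, 1.15 and 1.28 CPM. ftr06 was at 0, 0.158 and 0 CPM in WIK, at 2.45, 2 and 2.22 CPM in mm-MO and at 0.254, 0.041 and 0.0882 CPM in her3-MO. Reads of such families can be divided among near-identical copies, so the values of single members are uncertain. As a list they did not stand out: of 73 tested, 2 were higher and 2 lower (5.48% called, beside 10.5% of all genes). The counts were 1 and 5 without both libraries that stood apart.

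**Figure D4:**
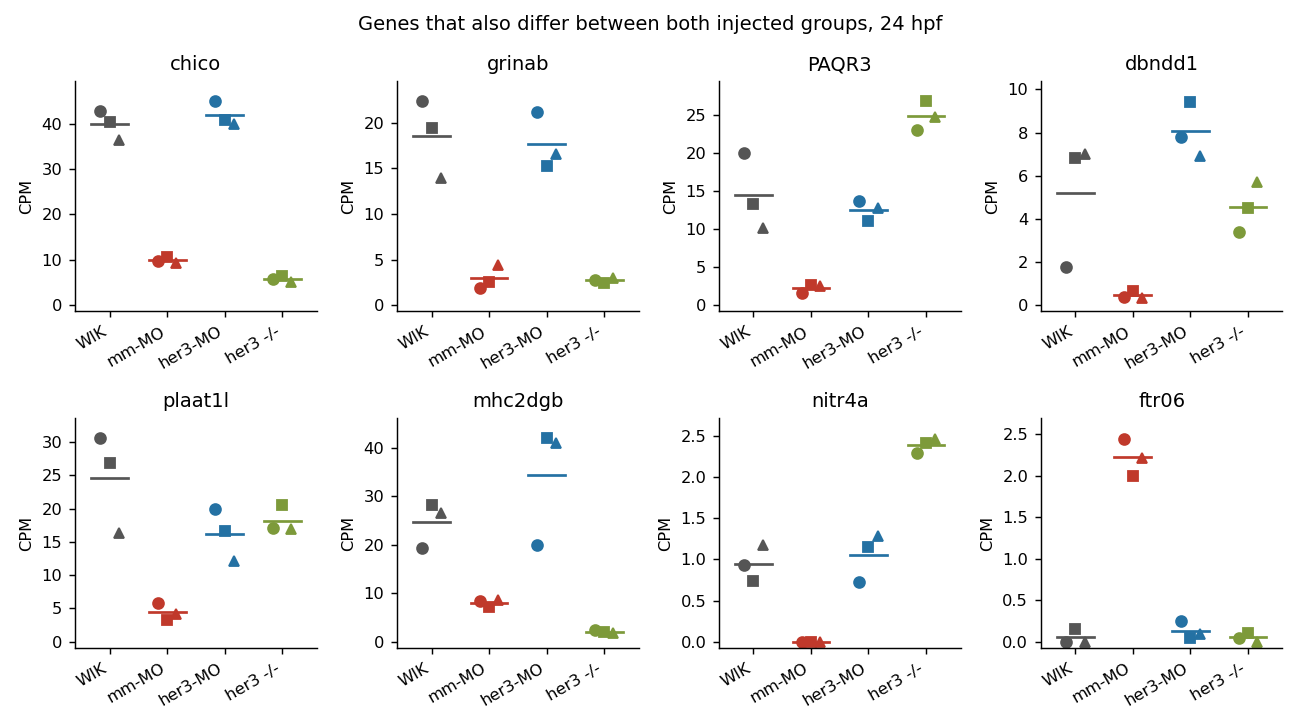
CPM of 8 genes that differ between mm-MO and WIK and also between both injected groups, in the 3 libraries of each 24 hpf group (circle replicate 1, square 2, triangle 3; the line is the mean). For 7 of the genes mm-MO lies below WIK while her3-MO overlaps or exceeds it; ftr06 is the reverse, at 2 to 2.45 CPM in mm-MO against at most 0.254 CPM in WIK and her3-MO. Uninjected her3 -/- libraries are low with mm-MO for chico, grinab and mhc2dgb. The genes were chosen by values of mm-MO, WIK and her3-MO, so the pattern among those groups is no independent evidence.

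Neural progenitor and proneural genes were lower more often than higher. Of 66 tested, 13 were lower and 2 higher (22.7% called, beside 10.5% of all genes). The lower count was 13 without both libraries that stood apart and 8 without mm-MO replicate 2, and the list's median of -0.11 became 0.01 after rescaling to plain totals. A fit of the 6 libraries alone called 3 of these genes lower. her4.2, a Notch-responsive repressor, was at 70, 69 and 62.9 CPM in WIK and at 35.9, 30.2 and 32.6 CPM in mm-MO (-1.02 ± 0.09, adjusted p = 2.1e-06). The basic helix-loop-helix factor atoh8 was at 42, 33.8 and 31.3 CPM and at 16.1, 16.8 and 18.9 CPM (-1.02 ± 0.11, adjusted p = 3.0e-05), and FABP7 (ENSDARG00000034650), a fatty acid binding protein of radial glia, fell by 1.43. For all 3, her3-MO was above mm-MO, by 0.46, 0.62 and 1.23. They were chosen by their mm-MO values, which that contrast also uses, so its direction is no independent evidence. atoh1b, a factor of hindbrain and hair cell precursors, was higher in mm-MO at 16, 16.2 and 17.1 CPM against 8.07, 9.03 and 11.8 CPM (0.76 ± 0.14, adjusted p = 0.0028), and olig4 was higher by 0.61, a call lost without WIK replicate 2 or mm-MO replicate 2 or 3 (adjusted p = 0.077 to 0.087). Of 70 neuronal and synaptic genes, 1 was higher and 2 lower (4.29% called, beside 10.5% of all genes), and 1 and 1 without both libraries that stood apart. The neurofilament nefmb was at 91.3, 88 and 69.7 CPM in WIK and at 33.6, 40.2 and 43.7 CPM in mm-MO (-1.07 ± 0.10, adjusted p = 6.0e-06).

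Genes of the cell cycle list were lower in 10 and higher in 2 of 73 cases (16.4% called, beside 10.5% of all genes). The lower count was 6 without mm-MO replicate 1 and 11 without both libraries that stood apart. Rescaling to plain totals gave 7 lower and 6 higher, so the balance of directions depends on the scaling, and 0 were higher without mm-MO replicate 1 or 2. GMNN, which encodes geminin, the inhibitor of replication licensing, was at 48.7, 36.9 and 31.5 CPM in WIK and at 12.5, 15.9 and 22.7 CPM in mm-MO (-1.19 ± 0.18, adjusted p = 5.4e-04). The cyclin CCNE2 fell by 0.72 ± 0.08 (adjusted p = 4.9e-05), from 188, 176 and 154 CPM to 100, 103 and 110 CPM. cdkn1cb, an inhibitor of cyclin-dependent kinases, fell by 0.68. Its call was lost without mm-MO replicate 1 (adjusted p = 0.065) and in a limma fit of the 6 libraries alone (adjusted p = 0.25). chaf1a and cenpe, of chromatin assembly and the kinetochore, were higher by 0.44 and 0.38. The call of chaf1a was lost without mm-MO replicate 1 or 2 (adjusted p = 0.057 for each), and that of cenpe without WIK replicate 1 or mm-MO replicate 1 or 2 (adjusted p = 0.094 to 0.12).

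Clock and light-responsive genes were lower in 10 and higher in 2 of 50 (24% called, beside 10.5% of all genes). The lower count was 6 without mm-MO replicate 1 or 2, 9 without both libraries that stood apart and 5 after rescaling to plain totals. PER1 (ENSDARG00000012499), a repressor of the clock, was at 54.4, 65.9 and 71.4 CPM in WIK and at 27, 26.1 and 21.4 CPM in mm-MO (-1.34 ± 0.11, adjusted p = 9.2e-07), with her3-MO at 20.8, 21.7 and 19.9 CPM. NR1D1, the nuclear receptor of the second clock loop, was lower by 0.91 and ciarta by 0.71, while PER2 and cry3b were higher by 0.66 and 0.67. The hour of collection is not given beyond the age, and its part in these values was not tested. In her3-MO, PER2 was at 10.9, 9.77 and 10.5 CPM, below mm-MO by 0.82 (adjusted p = 0.0019). PER2 was chosen by its mm-MO values, which that contrast also uses, so its direction is no independent evidence.

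Hox genes, which set position along the body axis, had a median of -0.35. They were lower in 19 and higher in 0 of 48 (39.6% called, beside 10.5% of all genes). HOXC12 (ENSDARG00000103133) was at 13.8, 11.1 and 11.4 CPM in WIK and at 8.36, 6.62 and 6.75 CPM in mm-MO (-0.70 ± 0.14, adjusted p = 0.0046). This count was 6 without mm-MO replicate 2, 7 without WIK replicate 1, 9 without mm-MO replicate 3, 12 without mm-MO replicate 1, 7 with values rescaled to plain totals and 3 without both libraries that stood apart. It was 0 in a fit of the 6 libraries alone. By limma 1 Hox gene was higher at an unadjusted p under 0.05, and limma voom called 0 higher. Ribosomal protein genes had a median of -0.42, and 76 of 79 differences were negative. Only 13 passed as lower and 1, rps27l, as higher (17.7% called, beside 10.5% of all genes). The number called lower was 1 without mm-MO replicate 1 or 2, 6 without WIK replicate 1, 67 without mm-MO replicate 3 or WIK replicate 3, and 69 without WIK replicate 1 and mm-MO replicate 3. RPL22L1 was at 767, 420 and 389 CPM in WIK and at 202, 207 and 311 CPM in mm-MO (-1.09 ± 0.20, adjusted p = 0.0025). The linker histone H1-10 fell by 0.87 (adjusted p = 0.0053), a call lost in a limma fit of the 6 libraries alone (adjusted p = 0.19). Other histone genes were called in both directions.

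Among heat shock and stress genes, 9 were higher and 4 lower of 72 (18.1% called, beside 10.5% of all genes). The higher count was 19 after rescaling to plain totals, the lower count 7 without mm-MO replicate 3, and the counts were 11 higher and 6 lower without both libraries that stood apart. The collagen chaperone SERPINH1 (ENSDARG00000019949) was at 356, 265 and 251 CPM in WIK and at 551, 578 and 704 CPM in mm-MO (1.08 ± 0.13, adjusted p = 8.8e-05), and HSP90AA1 rose by 0.90 ± 0.10 (adjusted p = 2.0e-05). TXNIP was lower at both of its copies, by 1.38 and 0.77, and the hypoxia-regulated hydroxylase EGLN3 fell by 1.31. In the respiratory chain list 5 were lower and 2 higher of 103 (6.8% called, beside 10.5% of all genes), with 8 lower without WIK replicate 3 or mm-MO replicate 3. In this list, cox6b1, a subunit of cytochrome oxidase, was at 85.3, 62 and 56.5 CPM in WIK and at 19.1, 23.1 and 23.6 CPM in mm-MO (-1.59 ± 0.14, adjusted p = 3.6e-06), with 12, 9.48 and 8.91 CPM in her3-MO. P4HA1, the prolyl hydroxylase of collagen, fell by 1.56 ± 0.17 (adjusted p = 2.8e-05), from 113, 94.1 and 72.4 CPM to 25.9, 33.1 and 34.3 CPM.

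Muscle genes were lower in 12 and higher in 1 of 95 (13.7% called, beside 10.5% of all genes). The slow myosins smyhc2 and smyhc1 were lower by 1.51 and 0.92, and tcap, a protein of the sarcomere's Z disc, by 1.28. The muscle count was 6 without mm-MO replicate 2, without mm-MO replicate 3 or without both libraries that stood apart, 7 without WIK replicate 1 or 2, and 8 after rescaling to plain totals, and the call of smyhc1 was lost without any one of WIK replicates 1 and 2 and mm-MO replicates 2 and 3 (adjusted p = 0.055 to 0.092) and after rescaling (adjusted p = 0.067). Lens genes were higher in 6 of 60 and lower in 0 (10% called, beside 10.5% of all genes), a count of 1 without mm-MO replicate 2, 2 without mm-MO replicate 3, 3 without WIK replicate 2 or 3, 10 without WIK replicate 1, 5 without both libraries that stood apart and 20 after rescaling. By limma 1 lens gene was lower at an unadjusted p under 0.05, and limma voom called 0 lower. Leukocyte genes were called higher in 10 and lower in 3 of 40 (32.5%), but leaving out any one library left 3 to 8 higher and 0 to 3 lower, and leaving out both that stood apart left 5 and 0. CSF3R of neutrophils rose by 0.93 and the macrophage gene MPEG1 (ENSDARG00000043093) fell by 0.67, and neither call was stable. That of CSF3R was lost without WIK replicate 1 (adjusted p = 0.15), without mm-MO replicate 1 or 2 (0.14 and 0.10) and with limma voom (0.075). That of MPEG1 was lost without WIK replicate 1 or 3 or mm-MO replicate 1 or 3 (adjusted p = 0.054 to 0.072) and with limma voom (0.11). A fit of the 6 libraries alone called 0 muscle, lens and leukocyte genes. In bulk embryos, fewer cells of a type and less RNA per cell cannot be told apart.

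Other lists are described more briefly, and each share called stands beside 10.5% of all genes. The liver, pancreas and gut list had 6 lower and 1 higher of 73 (9.59% called, beside 10.5% of all genes). The lower count was 3 without mm-MO replicate 1 or 2 and 4 without both libraries that stood apart. Its largest decreases were those of CELA1, an elastase, at 2.97, 1.48 and 0.921 CPM in WIK against 0.245, 0.167 and 0.155 CPM in mm-MO, and of uox, urate oxidase, which was at 17.2, 15.6 and 14 CPM and at 4.12, 4.29 and 6.7 CPM. For CELA1 the mm-MO values lay near the limit of 3 reads, which is 0.155 CPM in mm-MO replicate 3. Its call was lost in a limma fit of the 6 libraries alone (adjusted p = 0.1). her3-MO was above mm-MO for CELA1 and uox, by 1.39 and 1.44. Both were chosen by their mm-MO values, which that contrast also uses, so its direction is no independent evidence. Photoreceptor genes were higher in 4 and lower in 2 of 60 (10% called, beside 10.5% of all genes). The counts were 2 and 4 without mm-MO replicate 3, 2 and 1 without both libraries that stood apart and 7 and 1 after rescaling to plain totals. Among the photoreceptor genes, GRK7 (ENSDARG00000055534), the cone opsin kinase, was at 0.849, 0.581 and 1.18 CPM in WIK, at 2.81, 2.62 and 3.3 CPM in mm-MO and at 0.678, 0.698 and 0.75 CPM in her3-MO. The pigment and neural crest list had 4 lower of 51 (7.84% called), a count of 0 without mm-MO replicate 2 or after rescaling, 7 without mm-MO replicate 3 and 4 without both libraries that stood apart. The claudins had 4 lower of 33 (12.1% called), and 2 without WIK replicate 1 or mm-MO replicate 1 or 2. The interferon list had 3 higher and 3 lower of 26 (23.1% called), with 2 to 4 higher and 2 to 3 lower when one library was left out and 4 and 1 after rescaling. Zinc finger genes had 15 higher and 15 lower of 281 (10.7% called, beside 10.5% of all genes), with 6 to 28 higher and 12 to 18 lower when one library was left out, the lowest count of higher genes without mm-MO replicate 1 and the highest without WIK replicate 3. Solute carriers had 24 higher and 17 lower of 388 (10.6% called), with 10 and 7 without mm-MO replicate 2 and 46 and 10 after rescaling.

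**Figure D5:**
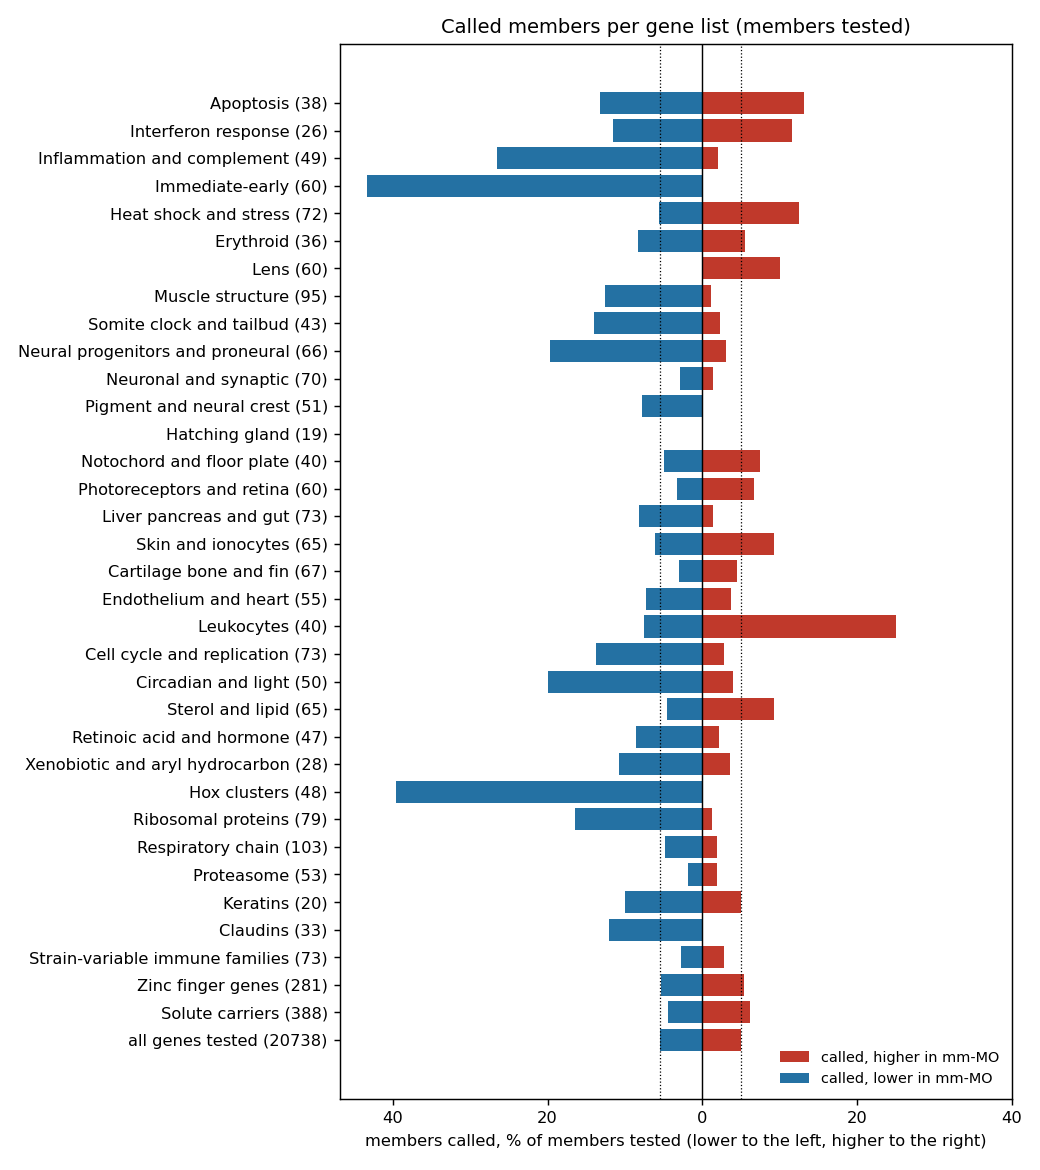
Share of tested members of 34 gene lists and of all genes (number tested in brackets) that were called lower (left, blue) or higher (right, red) in mm-MO, in percent. Dotted lines mark the shares over all genes, 5.48% lower and 4.99% higher. The immediate-early (43.3%) and Hox (39.6%) lists have the longest bars to the left, and the leukocyte list (25%) the longest to the right.

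The called genes were also set beside the change with age. The her3 -/- libraries at 24 and 72 hpf, none of which is in this comparison, gave the direction of change with age for each gene, with 74.9% of genes called. Of the 1034 genes higher in mm-MO, 31.8% were higher at 72 hpf and 43.4% lower, and of the 1137 genes lower in mm-MO, 33.1% were higher at 72 hpf and 48.9% lower, beside 37.1% and 37.8% of all genes. Of the 164 genes higher by at least 2-fold, 26.8% were higher at 72 hpf and 38.4% lower, and of the 176 lower by at least 2-fold, 38.1% were higher and 38.6% lower. The differences between these shares were not tested.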

How the data were processed

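RNA-seq of whole-embryo pools was deposited by the authors as 1 table of CPM (reads scaled to library size) for 18 libraries and 25535 genes. The submitters' processing notes list edgeR 3.34.0, featureCounts 2.0.2, HISAT2 2.2.1, SAMtools 1.10 and, as genome build, danRer11. Whether counting used strand is not given in the sources used here. Each library's values were whole multiples of 1 step to within 0.01 reads, and its reads were recovered from that step. The CPM values summed to between 912145 and 1206849 per library, which shows that the authors' scaling was not by plain totals. The highest sum was that of WIK replicate 1 at 24 hpf, which also held the fewest reads of the 18 libraries (14214136). Names came from a gene name table, which named 23539 of 25535 identifiers, often with the human spelling, and 3584 of them share a symbol.

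log2(CPM + 0.5) of 20738 genes, those reaching 1 CPM in 3 or more of 18 libraries, was fitted with limma 3.58.1 in R 4.3.3 (trend and robust moderation), with 1 coefficient for each of 6 groups, 12 residual degrees of freedom and Benjamini-Hochberg adjustment over all tested genes (two-sided, threshold 0.05). The labels do not say whether pools came from separate clutches, so p-values reflect variation among pools alone. The fit was tested on simulated data. The simulation gave all genes and libraries the same spread, so it cannot show false calls where groups differ in spread. Genes were named by rule: her3, the 15 highest and 15 lowest called, non-overlapping differences of at least 2-fold with a proper gene name, up to 3 called members per list and direction, and genes of cell cycle arrest and cell death fixed by name. Further members of the apoptosis, immediate-early and inflammation lists were named after their values were seen. The comparison and the 36 gene lists were chosen with earlier results of these data known. Of these lists 34 are plotted, and only some of those are described in the text. Clone-named genes that met the rule (127, from -4.28 to 3.92) were left out of the names. Standard errors come from the moderated fit of all 18 libraries. They carry the spread shared by the 6 groups, not that of the compared libraries alone, and can be too small for mm-MO and WIK. The detection limit of 3 reads covers counting error only. Certain genes and 2 lists are not reported here.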

Additional observations from a re-analysis of the deposited data

How the results depend on the processing

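Of 2985 values of the 176 named genes under the alternatives, 2354 kept their direction and side of the threshold, 631 kept their direction but no longer passed, and 0 reversed. Alternatives that change only the filter, the moderation, the block or the groups in the fit leave each log2 difference unchanged. They could not reverse a direction. Most of these genes were also named because they passed in the main fit. For mm-MO against WIK, pseudocounts of 0.1 and 1, no filter on low values, a filter within the compared groups, median-of-ratios size factors, no robust moderation and voom on recovered reads gave 1999 to 2206 called genes beside 2171, keeping 87.6% to 99.4% of them. A pseudocount of 0.1 gave 527 genes of at least 2-fold beside 340, and rescaling to plain totals gave 1894 higher genes beside 1034. A fit of the 6 libraries alone called 154 genes (80 higher, 74 lower, 116 of at least 2-fold). It has fewer residual degrees of freedom by construction, and it does not share the spread of groups with closer replicates. In that fit 1 cell cycle and 2 clock genes were lower, 0 ribosomal protein genes were called, and 1 heat shock gene was called in each direction. Leaving out 1 library gave 1048 (without mm-MO replicate 2) to 2943 (without WIK replicate 3) called genes, 486 to 1511 higher, 562 to 1546 lower and 283 to 544 of at least 2-fold. For the contrasts used beside it, her3-MO against WIK called 2997 genes, 70 in a fit of its own groups and 1022 to 5254 with 1 library left out, and her3-MO against mm-MO called 694, 182 and 327 to 817. The age contrast called 15538 and 14709 to 14928. With the replicate number as a block, limma called 0 genes for mm-MO against WIK (0 higher, 0 lower, 0 of at least 2-fold; 1660 at an unadjusted p under 0.05), 0 for her3-MO against WIK and 360 for her3-MO against mm-MO. Same-numbered WIK and mm-MO libraries correlated in their deviations from the group mean at -0.56, 0.32 and -0.58 across genes. WIK replicate 1 and mm-MO replicate 3 correlated at 0.68. Deviations from a mean of 3 libraries are tied to each other, and the libraries that stood apart weigh most in them. They cannot show whether equal numbers share a clutch or a day, and the labels do not say. The planned edgeR and DESeq2 tests on recovered reads were not run, and limma voom was. The cause of these changes was not tested. Genes under 0.122 to 0.255 CPM are below 3 reads.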
